A study of Mus musculus with 4 samples.

Results

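Mesenchymal cells carrying transcripts of the distal-less homeobox genes Dlx2, Dlx5 or Dlx6 together with Prrx1 were examined in single-cell libraries of E10.5 mouse hearts. The cells were chosen by their own UMI counts (a UMI is 1 captured mRNA molecule). A cell was kept with at least 1 UMI of Dlx2, Dlx5 or Dlx6, at least 1 UMI of Prrx1, no UMI of Foxf1, Isl1, Epcam, Cdh5 or Pecam1, and less than 5 UMIs of Tnnt2 per 10000. Of 28025 cells within the limits on depth and mitochondrial UMIs, 491 met the rule (1.75%), and they are called Dlx+ cells here. Prrx1+ cells meeting the same limits with no UMI of the 3 Dlx genes, 941 in all, served for comparison and are called Dlx- cells.

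Hearts were dissected from C57BL/6J embryos that were wild-type (Wt) or homozygous for Cyp51 I383V (Ho), with 2 libraries of each genotype, named Wt1, Wt2, Ho1 and Ho2 (Wt1 is a library here, not the gene of that name). Cyp51 encodes lanosterol 14-alpha demethylase, an enzyme of cholesterol synthesis, and the allele had been introduced into the germline with Cas9 and a repair template and then backcrossed to C57BL/6. The labels give CRISPR/Cas9 as the treatment of all 4 libraries, the wild-type ones included, and the sources used here do not state how many embryos entered a library. Hearts were digested with collagenase, red blood cells were lysed, and cells were captured with the Chromium 3′ chemistry, version 3.1, with no sort, so any pharyngeal tissue left on a dissected heart entered the suspension.

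Dlx genes encode homeodomain factors that pattern the pharyngeal arches, the segments from which the jaw, the hyoid and the throat skeleton form. Neural crest cells that enter an arch express Dlx1 and Dlx2 along its whole height, Dlx5 and Dlx6 ventrally and Dlx3 and Dlx4 near the distal end, so that the nested sets mark position. Endothelin 1, acting through its receptor Ednra, maintains Dlx5 and Dlx6, which in turn act upstream of Hand2, while Hox genes mark the order of the arches from front to back, the first arch being free of them.

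The members came almost wholly from 1 library. Wt1 held 463 Dlx+ cells among 8283 (5.59%, 95% exact interval 5.10 to 6.11). Wt2 held 9 among 6840 (0.132%, 0.0602 to 0.250), Ho1 held 10 among 6933 (0.144%, 0.0692 to 0.265) and Ho2 held 9 among 5969 (0.151%, 0.0690 to 0.286). Wt1 thus supplied 94.3% of the members, at 37.1 times the highest share of the other 3 libraries, whose intervals overlapped. Among Prrx1+ cells meeting the other limits the order was the same for Wt1, with 46.0% Dlx+ there against 4.95% in Wt2, 7.35% in Ho1 and 8.41% in Ho2. The intervals cover counting error only.

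**Figure D1:**
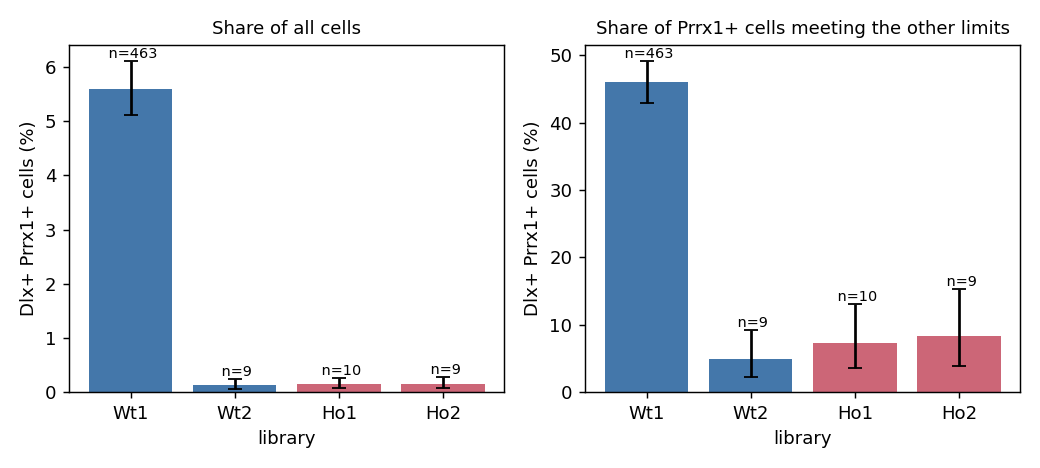
Share of Dlx+ Prrx1+ cells in each library (bars, percent), of all cells on the left and of Prrx1+ cells meeting the other limits on the right, with exact 95% intervals and the number of cells. Wt1 reached 5.59% and 46.0%, and the other 3 libraries stayed at 0.151% and 8.41% or less.

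The difference lay within a genotype, since Wt1 and Wt2 carry the same label. The mean share was 2.86% ± 3.86 (SD, n = 2) in Wt and 0.148% ± 0.00463 (SD, n = 2) in Ho, and an exact two-sided permutation test gave p = 1, where 2 libraries against 2 can reach no less than 0.333. Without Wt1 the difference between Ho and Wt changed sign, from -2.71 to 0.0159 percentage points. In every comparison of genotypes below that includes Wt1, the genotype and the content of Wt1 cannot be told apart.

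Wt1 differed from the other libraries in more than its Dlx+ cells. Prrx1 UMIs were found in 27.9% of its cells, against 12.5%, 8.14% and 12.6% in Wt2, Ho1 and Ho2. Crabp1, a retinoic acid-binding protein of neural crest mesenchyme, was at 279 CPM over all cells of Wt1, against 47.0, 15.2 and 47.0 CPM (CPM are the UMIs of a gene per 1000000 UMIs of the summed cells). Epcam, a marker of epithelium, was found in 9.85% of Wt1 cells, against 4.82%, 1.08% and 7.27%. Cells with at least 50 Tnnt2 UMIs per 10000, the cardiomyocytes, made up 3.27% of Wt1 and 5.86% to 7.50% of the others. Barx1 was at 31.8 CPM over all cells of Wt1, against 7.20, 5.92 and 10.0 CPM, and Hoxb2 at 49.9 CPM, against 17.4, 7.26 and 27.6 CPM. Tbx1 was found in 8.76% of Wt1 cells, against 6.24%, 0.361% and 5.23%. Isl1, Foxf1 and Pitx1 did not set Wt1 apart in this way. Isl1 was found in 36.4%, 31.4%, 12.2% and 35.2% of cells (Wt1, Wt2, Ho1, Ho2), Foxf1 in 12.3%, 6.97%, 0.649% and 15.9%, and Pitx1 in 0.652%, 1.07%, 1.07% and 1.79%, with Ho1 lowest for Isl1 and Foxf1 and Wt1 lowest for Pitx1. The part of these differences in the results was not tested.

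Ho1 stood apart in another way. Its cells held 31705 UMIs of Xist, the RNA of the inactive X chromosome, whereas Wt1, Wt2 and Ho2 held 4, 4 and 1, and no Dlx+ cell of Ho1 had a UMI of the 4 Y chromosome genes examined, which were found in 325 of 463 Dlx+ cells of Wt1, 7 of 9 of Wt2 and 6 of 9 of Ho2. Sex was therefore not balanced between the genotypes. Cell barcodes shared between libraries numbered 90 over all pairs of libraries, none of them between Dlx+ cells of different libraries, although 3 Dlx+ barcodes of Wt1 also occurred among the cells of Ho1. Scrublet called 5 Dlx+ cells of Wt1 doublets (1.08%) and none elsewhere.

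The values that chose the members also separated the libraries, and are given as a description. In Wt1, 295 of the 463 cells had at least 2 UMIs of the 3 Dlx genes, the median was 2 and the highest 16. Just inside the rule lay the 168 Wt1 cells with 1 UMI, and just outside it the 544 Dlx- cells with none. Outside Wt1, 27 of 28 members had exactly 1 Dlx UMI, and 1 cell of Ho2 had 2. In these libraries the UMI was mostly of Dlx2, found in 8 of 9, 8 of 10 and 6 of 9 cells (Wt2, Ho1, Ho2).

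A single UMI can also come from free RNA in a droplet. Dlx2, Dlx5 or Dlx6 UMIs were found in 0 of 271 cardiomyocytes of Wt1, which allows a share of up to 1.11%, and in 4 of 401, 5 of 520 and 1 of 365 cardiomyocytes of Wt2, Ho1 and Ho2. Endothelial cells, those with at least 2 UMIs of Cdh5 and Pecam1, carried them in 2.75%, 1.45%, 0.927% and 1.41% of cells (Wt1, Wt2, Ho1, Ho2). The median depth of cardiomyocytes was 11579, 15853, 14480 and 15875 UMIs in the same order, that of endothelial cells 13863.5, 16383, 17135 and 16758, and that of the Dlx+ cells 16758, 17207, 16951.5 and 14851. The 4.95% of Wt2 had an interval of 2.29 to 9.18%, the 7.35% of Ho1 one of 3.58 to 13.1% and the 8.41% of Ho2 one of 3.92 to 15.4%, on 9 or 10 cells each, against upper limits of 2.07%, 1.40% and 2.22% for the endothelial shares. These intervals cover counting error only, the rule itself used the Dlx UMIs, and the part of free RNA in them was not tested.

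The limits of the rule removed many Dlx+ Prrx1+ cells. In Wt1 713 cells had both transcripts and 250 were removed, 109 of them with Isl1, 95 with Foxf1, 55 with Cdh5 or Pecam1, 52 with Epcam and 15 with too much Tnnt2, where a cell can fail several limits. In Wt2 83 of 92 were removed, in Ho1 21 of 31 and in Ho2 78 of 87. Isl1, a factor of second heart field progenitors, was the most frequent reason in Wt2 (66 cells) and Ho2 (64 cells). Cells with at least 2 Dlx UMIs, whatever else they expressed, numbered 469, 25, 5 and 38 (Wt1, Wt2, Ho1, Ho2), so Dlx transcripts beyond a single UMI were not limited to Wt1, but in the other libraries all such cells except 1 fell outside the rule.

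Within Wt1 the family members were unequal. Dlx5 was the most abundant of the 3 rule genes, with 679 UMIs in 320 of 463 cells (69.1%) and up to 10 in a cell. Dlx6, its neighbour on chromosome 6, had 353 UMIs in 230 cells (49.7%), and Dlx2 had 264 UMIs in 212 cells (45.8%). Dlx5 lies on GRCm38 at chr6:6877805-6882085 on the minus strand and Dlx6 at chr6:6863334-6868568 on the plus strand. Dlx5 and Dlx6 were found together in 164 cells, 51.3% of the Dlx5 cells and 71.3% of the Dlx6 cells. By combination, 109 cells had Dlx5 alone, 94 had Dlx5 and Dlx6, 77 had Dlx2 alone, 70 had all 3, 48 had Dlx6 alone, 47 had Dlx2 and Dlx5, and 18 had Dlx2 and Dlx6. At a few UMIs per cell a gene not found in a cell may still have been transcribed there.

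Family members that the rule did not use followed. Dlx1, which lies next to Dlx2 on chromosome 2, had 232 UMIs in 162 Dlx+ cells of Wt1 (35.0%), against 52 UMIs in 46 of 544 Dlx- cells (8.46%). Its level was 30.1 CPM against 8.39 CPM, a log2 ratio of 1.84 (1.40 to 2.31). Dlx6os1, a noncoding RNA from the strand opposite Dlx6 and overlapping it, was at 22.6 against 2.26 CPM. The distal genes were scarce, with 18 UMIs of Dlx3 and 3 of Dlx4 in all 463 cells. Outside Wt1, Dlx1 gave 1 UMI in Wt2, none in Ho1 and 3 in Ho2, and Dlx6os1 gave none.

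The label of pharyngeal arch mesenchyme was checked against markers that the rule did not use. In Wt1 the Dlx+ cells had Barx1 at 245 CPM, Msx1 at 136, Msx2 at 73.6, Prrx2 at 314, Twist1 at 257 and Hand2 at 80.4 CPM, as well as the neural crest genes Crabp1 (1032 CPM), Tfap2b (154 UMIs) and Tfap2a (8.18 CPM). Alx4, an arch gene of the frontonasal region, and Foxd3, a gene of premigratory neural crest, had no UMI, and Sox10 had 9. Markers of other types were low in sum, with 14.8 CPM for 7 epithelial genes, 63.5 CPM for 8 endothelial genes and 318 CPM for 12 cardiomyocyte genes, led by Myl7 at 113 CPM, which was at 33890 CPM in cardiomyocytes. The cardiomyocyte factor Nkx2-5, the epithelial genes Cdh1 and Cldn3 and the macrophage genes C1qa, C1qb, C1qc and Ptprc were at 0. Barx1 was at 6.34 CPM in cardiomyocytes and 2.90 CPM in endothelial cells, Msx2 at 20.4 and 3.78 CPM, and Tfap2b at 0 and 0.659 CPM, all below the Dlx+ cells. Prrx2, Twist1 and Hand2 were similar or higher in Dlx- cells and do not bear on the label. Crabp1 was at 19.7 CPM in cardiomyocytes, 37.9 CPM in endothelial cells and 715 CPM in Dlx- cells, and was found in 49.0% of all cells of Wt1. The markers were thus present in part. Barx1, Msx2 and Tfap2b were above cardiomyocytes, endothelial cells and Dlx- cells, whereas Hand1 and Bmp4 were below the Dlx- cells and Lhx6 and Pitx1 had 4 and 3 UMIs. Barx1 was not particular to the members. In the 250 Wt1 cells with Dlx and Prrx1 UMIs that the limits removed, Barx1 was at 112 CPM and found in 38.4%. Prrx1+ cells of Wt1 with Foxf1 had it at 36.8 CPM. The name arch mesenchyme is used for the cells of Wt1 with these limits.

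The markers of the other libraries' members differed from those of Wt1. Barx1 was found in 274 of 463 members of Wt1 (59.2%), and in 1 of 9, 0 of 10 and 0 of 9 of Wt2, Ho1 and Ho2. Tbx20, a T-box factor of the developing heart, was found in 6.91% of Wt1 members, but in 8 of 9 in Wt2, 9 of 10 in Ho1 and 2 of 9 in Ho2. Postn, a matrix gene of the cushions, was found in 6.48% of Wt1 members and in 8 of 9, 8 of 10 and 2 of 9 of the others. Members of Wt2 and Ho1 were thus mostly Tbx20+ Postn+ mesenchyme with 1 Dlx UMI. In Ho2, by contrast, 7 of 9 members had no Tbx20, 3 of 9 had Hox genes of groups 4 or 5 and none had Barx1. Crabp1 was found in 7 of 9 members of Ho2, at 458 CPM. It was also found in 6 of 9 members of Wt2 and 5 of 10 of Ho1, at 118 and 68.6 CPM.

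**Figure D2:**
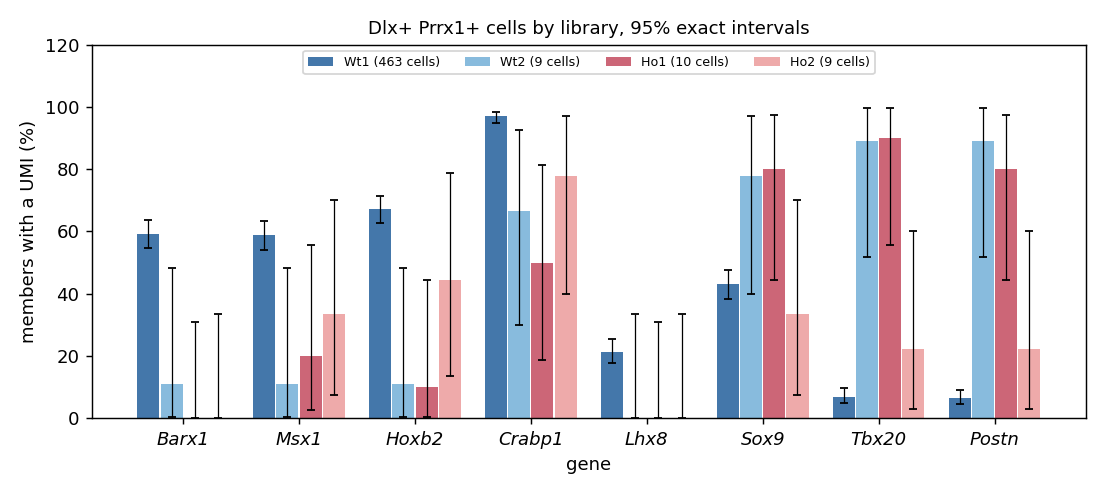
Share of Dlx+ Prrx1+ cells with at least 1 UMI of 8 genes in each library (bars, percent), with exact 95% intervals. Barx1 was found in 59.2% of the members of Wt1 and in 1 of 28 elsewhere, whereas Tbx20 and Postn were found in 8 of 9 members of Wt2 and under 7% of those of Wt1.

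In the Dlx- cells, Wt1 differed from all 3 other libraries, Ho2 included. Tbx20 was found in 24.1% of Dlx- cells of Wt1, against 91.9%, 92.9% and 76.5% in Wt2, Ho1 and Ho2, and its level was 79.9 CPM against 237, 263 and 222 CPM. Postn was at 57.8 CPM in Dlx- cells of Wt1 and at 230, 228 and 151 CPM in the others. Crabp1 was at 715 CPM in Dlx- cells of Wt1 but at 42.3, 62.1 and 61.8 CPM in the Dlx- cells of the other libraries. The comparison group in Wt1 thus differed in content from that of the other libraries. Whether it held arch cells without a Dlx UMI was not tested.

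Comparisons within Wt1 rest on 1 library, so that no test is given, and intervals of the ratios cover counting error only. Dlx+ cells were deeper (median 16758 UMIs) than Dlx- cells (11040 UMIs), and CPM scale each sum to the same total. Of 11254 genes with at least 20 UMIs, 1.13% were over 1 and 8.96% under -1 in log2 ratio of Dlx+ to Dlx- cells, with a median of -0.10. Of the 4987 genes with a mean of at least 20 CPM, 0.221% were over 1 and 3.53% under -1. The Dlx+ cells were marked by few genes above the Dlx- cells and by many below.

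Barx1, a homeobox factor of the maxillary and mandibular mesenchyme and of tooth and cartilage fields, led the patterning genes. It had 1883 UMIs in the Dlx+ cells of Wt1 and 145 in the Dlx- cells, or 245 against 23.4 CPM, a log2 ratio of 3.39 (3.14 to 3.64). Cells with a UMI were 59.2% against 8.82%, and after thinning every cell to 2000 UMIs 25.9% against 5.33%. In cardiomyocytes of Wt1 Barx1 was found in 2.58% of cells, and in endothelial cells in 1.88%. Lhx8, a LIM homeobox factor of oral mesenchyme, was at 16.5 against 2.26 CPM, a log2 ratio of 2.87 (2.07 to 3.78).

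Several other genes of the first arch were close to absent. Lhx6, which is usually expressed with Lhx8 in the first arch, had 4 UMIs in the 463 cells, Pitx1 had 3 and Gsc had 8. The upper arch gene Pou3f3 had none. Alx1 was at 14.9 CPM in Dlx+ and 19.2 CPM in Dlx- cells, a ratio whose interval included no difference (-0.75 to 0.02). With 115 UMIs, Alx1 was about as abundant as Lhx8 with 127. Of the 7 oral genes of the list, 4 had at least 20 UMIs. Of these 2, Barx1 and Lhx8, were over 1 and 1 was under -1, where 1.13% and 8.96% of all genes were.

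Genes of the ventral and distal arch went both ways. Msx2 was at 73.6 against 40.4 CPM (log2 ratio 0.87, 0.65 to 1.09), Tbx2 at 63.6 against 33.6 CPM (0.92, 0.69 to 1.16), Tbx3 at 38.3 against 22.0 CPM (0.80, 0.51 to 1.11) and Msx1 at 136 against 106 CPM (0.36, 0.22 to 0.51). Hand2, a target of the endothelin pathway in the arches, was lower, at 80.4 against 102 CPM (-0.35, -0.51 to -0.18). Hand2 was at 52.4 CPM in cardiomyocytes and 100.5 CPM in endothelial cells of Wt1, so that its level does not mark the arches in these hearts. Hand1 was at 6.62 against 28.9 CPM (-2.13, -2.60 to -1.67) and Bmp4, a ligand of the distal arch, at 19.9 against 31.8 CPM (-0.68, -0.99 to -0.37). Of the 9 distal genes with at least 20 UMIs, none was over 1 and 2 were under -1, with a median of 0.36 against -0.10 over all genes. Of all genes, 1.13% were over 1 and 8.96% under -1.

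**Figure D3:**
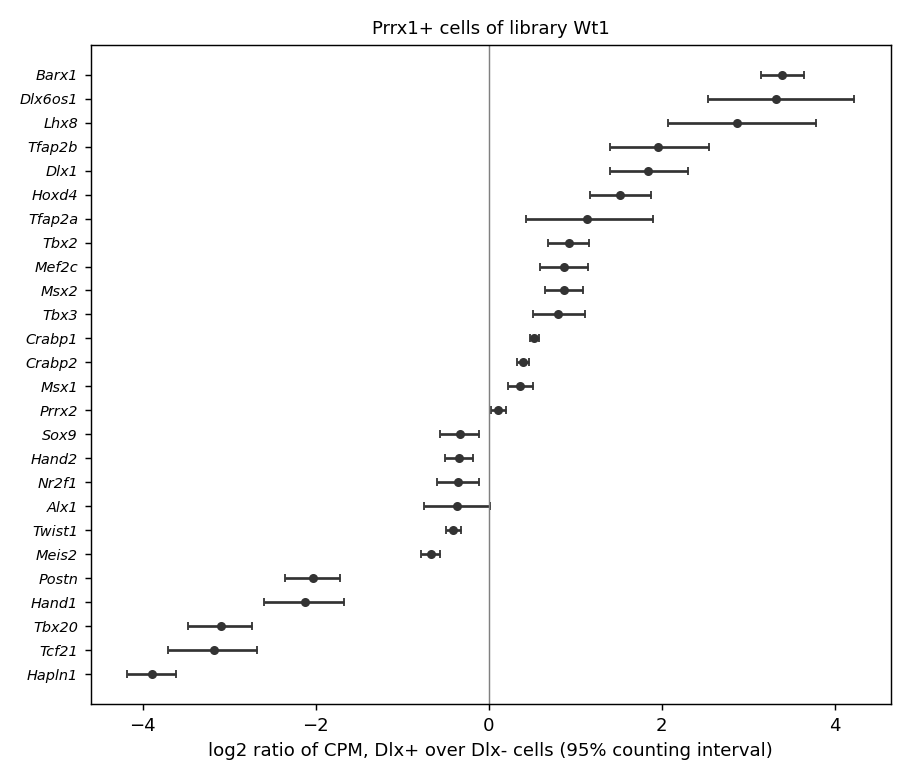
Log2 ratio of CPM between Dlx+ and Dlx- Prrx1+ cells of Wt1 for 26 genes (points), with 95% intervals for counting error. Barx1 (3.39) and Lhx8 (2.87) stood at the upper end and Tbx20 (-3.10) and Hapln1 (-3.89) at the lower end.

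The endothelin pathway itself gave few UMIs. Ednra, the receptor of endothelin 1, was at 4.42 CPM in Dlx+ and 5.00 CPM in Dlx- cells of Wt1, with 34 and 31 UMIs. Edn1, the ligand, which comes from arch epithelium, core mesoderm and endothelium, was at 1.82 against 28.6 CPM in the mesenchyme, and at 91.2 CPM in endothelial cells. The converting enzyme Ece1 was at 11.4 against 31.8 CPM. Of the transducers, Gnaq was at 22.5 against 21.5 CPM and Gna11 at 89.4 against 106 CPM. Mef2c, which acts downstream of the receptor in arch mesenchyme, was at 46.6 against 25.5 CPM (log2 ratio 0.87, 0.60 to 1.15).

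Proximal and upper arch genes were lower or similar. Meis2 was at 159 against 253 CPM (-0.67), Meis1 at 38.1 against 56.8 CPM (-0.58), Jag1, the Notch ligand of the upper arch, at 9.48 against 21.6 CPM (-1.19) and Eya1 at 2.99 against 10.49 CPM (-1.81). Nr2f1 was at 36.5 against 46.8 CPM (-0.36) and Nr2f2 had 154 against 137 UMIs, a ratio whose interval included 0 (-0.49 to 0.20). Of 7 proximal genes with at least 20 UMIs, none was over 1 and 3 were under -1, with a median of -0.67. Of all genes with at least 20 UMIs, 1.13% were over 1 and 8.96% under -1.

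Among neural crest genes, Tfap2b and Tfap2a, which encode AP-2 factors, were higher, with 154 against 32 UMIs (log2 ratio of CPM 1.95, 1.40 to 2.55) and at 8.18 against 3.71 CPM (1.14, 0.43 to 1.90). Crabp1 was at 1032 against 715 CPM (0.53) and Crabp2 at 521 against 396 CPM (0.40). Twist1 was at 257 against 341 CPM (-0.41), Ets1 at 17.8 against 43.6 CPM (-1.29) and the semaphorin receptors Nrp1 and Nrp2 at 11.04 against 27.0 CPM and 6.62 against 22.8 CPM. Of 15 genes of the list with at least 20 UMIs, 2 were over 1 and 4 under -1, where 1.13% and 8.96% of all genes were.

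Most Dlx+ cells of Wt1 carried Hox UMIs. Hoxb2 was at 76.5 CPM, Hoxd4 at 40.1, Hoxa2 at 29.0, Hoxb3 at 26.1 and Hoxb4 at 15.7 CPM, while the 7 listed genes of groups 6 to 9 had no UMI, which allows up to 0.390 CPM for each. As a background, Hoxb2 was found in 67.2% of Dlx+ cells but also in 10.3% of cardiomyocytes and 14.6% of endothelial cells of Wt1, and Hoxd4 in 43.4%, 0% and 0.940%. By the most posterior group found in a cell, 246 of 463 had a UMI of group 4 or 5 (53.1%, 48.5 to 57.8), 81 of group 3 (17.5%), 86 of group 2 only (18.6%) and 50 had none (10.8%). In Dlx- cells the shares were 23.9%, 17.1%, 22.8% and 36.2%. Hoxd4 differed most, at 40.1 against 14.0 CPM (log2 ratio 1.51, 1.17 to 1.88), whereas Hoxb2 had 76.5 against 69.4 CPM (0.14, -0.04 to 0.32) and Hoxb4 15.7 against 21.6 CPM (-0.46). After thinning each cell to 5000 UMIs, which left out 20 Dlx+ and 83 Dlx- cells, group 4 or 5 was found in 23.7% of Dlx+ (19.8 to 27.9) and 17.8% of Dlx- cells (14.4 to 21.6) and no Hox UMI in 39.3% and 52.1%. The classes were closer after thinning, and the intervals for group 4 or 5 overlapped, whereas those for no Hox UMI (34.7 to 44.0 and 47.4 to 56.7) and for Hoxd4, in 16.7% (13.4 to 20.5) against 6.07% (4.07 to 8.66), did not. These intervals cover counting error over the cells of Wt1 only and are no test.

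**Figure D4:**
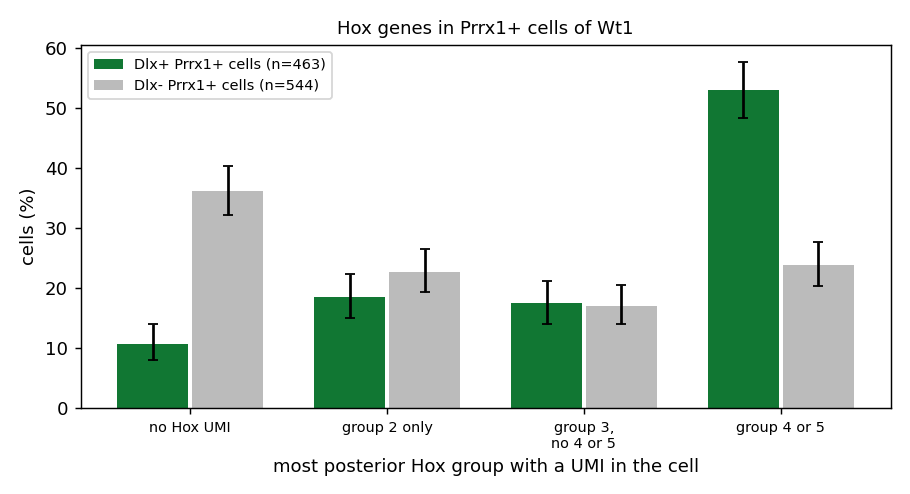
Most posterior Hox group with a UMI per cell in Dlx+ (463) and Dlx- (544) Prrx1+ cells of Wt1 (bars, percent of cells, without thinning), with exact 95% intervals. Group 4 or 5 was found in 53.1% of Dlx+ and 23.9% of Dlx- cells, and cells without a Hox UMI were 10.8% and 36.2%.

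Dlx+ cells with and without UMIs of Hox groups 2 and 3 were compared within Wt1. The 63 cells without any had Barx1 at 150 CPM, Tbx20 at 50.8, Postn at 89.6 and Sox9, a factor of cartilage and cushion cells, at 82.9 CPM. Postn came from 7 of these cells and Tbx20 from 12, so that a few cells carried these levels. The 111 cells with 1 such UMI had Barx1 at 269 CPM, Tbx20 at 10.9, Postn at 8.48 and Sox9 at 41.8 CPM. The 289 cells with at least 2 such UMIs had Barx1 at 250.2 CPM, Tbx20 at 3.02, Postn at 5.28 and Sox9 at 36.2 CPM. The median depth was 11907, 15429 and 18067 UMIs. Msx1 was at 147, 123 and 139 CPM and Twist1 at 266, 252 and 257 CPM, so that some genes differed little between these cells.

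Levels also moved with the number of Dlx UMIs per cell, which is given as a description since the rule used it. Over Dlx- cells and cells with 1, 2 to 3 and at least 4 Dlx UMIs (544, 168, 173 and 122 cells), Barx1 was at 23.4, 127, 220.0 and 382 CPM. Lhx8 was at 2.26, 11.4, 18.4 and 18.97 CPM, and Tbx2 at 33.6, 54.8, 62.6 and 73.0 CPM. Tbx20 was at 79.9, 24.6, 4.42 and 1.21 CPM, Postn at 57.8, 39.9, 4.42 and 2.02 CPM and Hand1 at 28.9, 14.9, 5.10 and 0.807 CPM. In cells with 1 UMI the levels of Tbx20 and Postn lay between the Dlx- cells and the cells with more UMIs. Hoxb2, at 69.4, 69.7, 90.1 and 66.6 CPM, and Ptch1, at 31.5, 26.3, 33.3 and 27.4 CPM, showed no such order. The median depth was 11040, 14187.5, 17544 and 19958 UMIs.

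**Figure D5:**
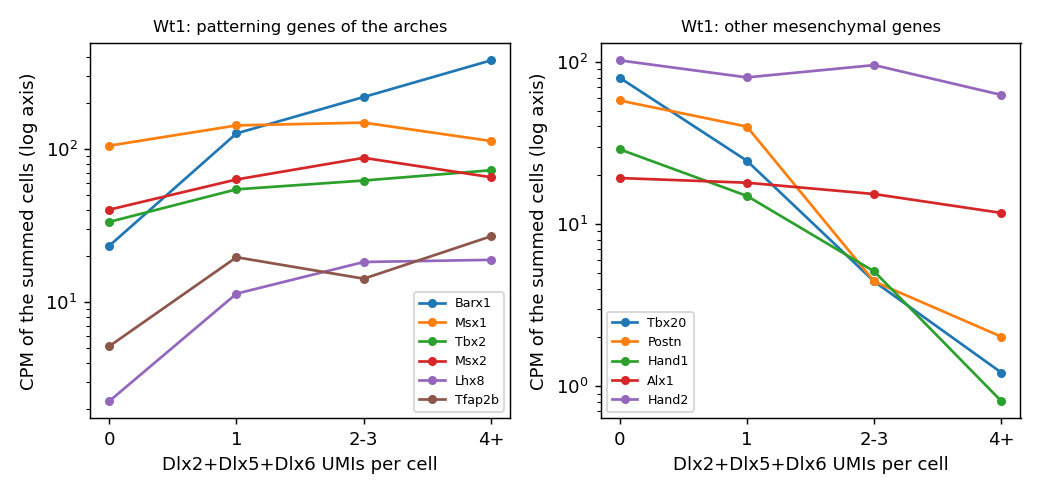
Levels in Prrx1+ cells of Wt1 by the number of Dlx2, Dlx5 and Dlx6 UMIs per cell (x axis), as CPM of the summed cells on a log axis. Barx1 went from 23.4 to 382 CPM over the 4 bins, while Tbx20 went from 79.9 to 1.21 CPM and Postn from 57.8 to 2.02 CPM.

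Levels are also given by which Dlx gene was found, as a description, since the rule used these counts. Cells with Dlx2 alone held 85 Dlx2 UMIs and those with Dlx5 or Dlx6 alone 394 Dlx5 and 212 Dlx6 UMIs, and the median depth was 14871, 16093 and 18977 UMIs in cells with Dlx2 alone, Dlx5 or Dlx6 alone and both kinds, so that the gene, the number of UMIs and the depth cannot be told apart. The 77 cells of Wt1 with Dlx2 alone had Barx1 at 66.1 CPM, Tbx20 at 36.6, Postn at 51.3, Sox9 at 77.5 and Meis2 at 227 CPM. The 251 cells with Dlx5 or Dlx6 and no Dlx2 had Barx1 at 251 CPM, Tbx20 at 6.01, Postn at 10.8, Sox9 at 36.8 and Meis2 at 156 CPM. The 135 cells with Dlx2 and Dlx5 or Dlx6 had Barx1 at 314 CPM, Tbx20 at 2.35 and Postn at 2.74 CPM. In Barx1, Tbx20, Postn and Meis2 the cells with Dlx2 alone lay nearer to the Dlx- cells than the others did, while their Sox9 level was above that of the Dlx- cells (52.9 CPM). Crabp1 was at 1264 CPM in cells with Dlx2 alone, 930 CPM in those with Dlx5 or Dlx6 alone and 1085 CPM in those with both kinds.

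Matrix genes were mostly lower than in the Dlx- cells of Wt1. Of 19 collagen and matrix genes with at least 20 UMIs, 12 were under -1 and none over 1, with a median of -1.24 against -0.10 over all genes. Hapln1, a hyaluronan link protein of the cushions, was at 14.8 against 220.0 CPM (-3.89), Fn1 at 73.6 against 206 CPM (-1.48), Vcan at 69.4 against 210 CPM (-1.60) and Col3a1 at 90.0 against 262 CPM (-1.54). Cthrc1 was at 212 against 275 CPM (-0.37). The list of Wnt genes had 10 of 18 under -1 and none over 1, with a median of -1.14, where 8.96% of all genes were under -1. After thinning each cell to 2000 UMIs, with counts under 3 set to 3, the median of the Wnt genes was -0.10. That of the matrix genes was then -0.89 and that of all genes -0.03. Among FGF genes, Etv4, a readout of FGF signaling, was at 18.7 against 9.04 CPM (1.05) and Fgf10 at 2.47 against 0.646 CPM, where 1.13% of all genes were over 1. Of 12 FGF genes with at least 20 UMIs, 2 were over 1 and 1 under -1, with a median of 0.31.

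Hedgehog and cholesterol synthesis, pathways the study examined in these hearts, were compared between the classes in Wt1. Ptch1, receptor and target of hedgehog, was at 29.4 against 31.5 CPM (-0.10, -0.38 to 0.18), Gli1 at 5.45 against 4.36 CPM (0.32, -0.41 to 1.08) and Smo at 54.4 against 54.6 CPM. In Prrx1+ cells with Foxf1, which the rule left out, Ptch1 was at 112 CPM and Gli1 at 17.2 CPM. Shh had no UMI in either class. Of 12 hedgehog genes with at least 20 UMIs, 1 was over 1, Foxd1 at 5.58 against 2.74 CPM (1.03), and 2 were under -1, the coreceptor Cdon at 4.42 against 9.20 CPM (-1.06) and Kif7 at 2.08 against 4.36 CPM (-1.07), with a median of -0.19. Of all genes, 1.13% were over 1 and 8.96% under -1. Over all libraries Cdon was lower by 0.97 and did not pass (edgeR adjusted p = 0.505). Of 27 genes of cholesterol synthesis and its control with at least 20 UMIs none was beyond 1 in either direction, with a median of 0.10. Cyp51 was at 83.1 against 83.8 CPM, Fdps at 374 against 333 CPM and Idi1 at 135 against 87.98 CPM (0.62). Genes of S phase and of G2 and M phase had medians of 0.16 and 0.19, with none of 42 and none of 52 genes beyond 1.

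A few further genes, among those with the largest ratios in Wt1 at a mean of at least 20 CPM, were chosen after their values were seen. Spp1, which encodes osteopontin, was at 45.8 against 1.29 CPM (5.15, 4.16 to 6.37), Hopx at 52.3 against 9.69 CPM (2.43) and Cadm1, a cell adhesion molecule, at 116 against 28.1 CPM (2.04). In the other direction stood Tnni1 at 14.3 against 169 CPM (-3.56), Anxa2 at 19.2 against 192 CPM (-3.32) and the growth factor Igf1 at 6.104 against 55.7 CPM (-3.19).

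Dlx+ and Dlx- cells were then compared over all 4 libraries, with UMIs summed per library and class and the difference taken within a library. In edgeR's quasi-likelihood test with Benjamini-Hochberg adjustment, 4 of 9102 genes were higher in Dlx+ cells (0.0439%) and 60 lower (0.659%), and all 60 were lower in every library. In the sums of Wt2, Ho1 and Ho2 a single UMI is worth 6.58, 6.24 and 7.28 CPM, so that values of low genes there rest on a few molecules. CPM in the next paragraphs are normalized values of this fit.

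Crabp2, a cellular retinoic acid-binding protein, was the only gene called that was higher in Dlx+ cells of all 4 libraries with a mean of at least 20 CPM. It was at 571 against 410 CPM in Wt1, 83.4 against 35.9 in Wt2, 56.3 against 20.5 in Ho1 and 271 against 70.3 in Ho2, a log2 fold change of 1.12 ± 0.23 (SE) with an edgeR adjusted p of 0.0340. The Dlx+ cells held 4010, 13, 9 and 38 Crabp2 UMIs, found in 446, 5, 3 and 8 cells (Wt1, Wt2, Ho1, Ho2). The 3 other genes called higher were Barx1, Hopx and Cadm1, higher in 2, 3 and 3 libraries. Barx1 had a log2 fold change of 2.74 ± 0.52 (SE, edgeR adjusted p = 0.0199), at 268 against 24.3 CPM in Wt1 and 12.8 against 2.66 in Wt2, but 0 against 6.67 in Ho1 and 0 against 3.67 in Ho2, and it was too low to be tested without Wt1. Barx1 was not called by DESeq2 (log2 fold change 0.91, DESeq2 adjusted p = 1.00), without Wt2 (2.77, edgeR adjusted p = 0.127) or without the library block (3.39, edgeR adjusted p = 0.236). Dlx1 was higher by 2.31 ± 0.57 but did not pass (edgeR adjusted p = 0.0933).

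Of the genes called lower, Tcf21, a factor of epicardium and cranial muscle precursors, had the largest change among those with a mean of at least 20 CPM. It was at 5.27 against 45.01 CPM in Wt1, 6.42 against 86.4 in Wt2, 31.3 against 104 in Ho1 and 0 against 138 in Ho2, a log2 fold change of -3.07 ± 0.35 (SE, edgeR adjusted p = 0.000594). Rnd2, a small GTPase, changed by -2.63 ± 0.28 (SE, edgeR adjusted p = 0.000479) and Tnni1, the slow troponin I, by -2.33 ± 0.35 (SE, edgeR adjusted p = 0.00379). The other named genes were Gm14226, Gngt2, Ppp1r14c, Gm35533, Phlda2, Akr1b8 and Nkain4, with changes between -2.91 and -2.23. Phlda2 was not called by DESeq2 (-1.83, DESeq2 adjusted p = 0.174). With edgeR it was not called under RLE normalization (-2.28, edgeR adjusted p = 0.0609) or after doublet removal (-2.24, edgeR adjusted p = 0.0680). Gm14226 was not called by DESeq2 (-2.32, DESeq2 adjusted p = 0.0649). Among list members, Twist1 was lower by 0.88 (edgeR adjusted p = 0.0135), at 281 against 354 CPM in Wt1 and at 353 against 707, 357 against 714 and 242 against 663 CPM in Wt2, Ho1 and Ho2.

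Part of these calls were also made without Wt1. Without it, 48 genes were called, 24 of them among the 64. All 24 kept their sign, but 61 of the 64 already had the same direction in all libraries, so the sign could hardly turn. Crabp2 (log2 fold change 1.67, edgeR adjusted p = 0.000685), Tcf21 (edgeR adjusted p = 0.000512), Rnd2 (-2.06), Gngt2 (-2.36) and Akr1b8 (-2.24) were among the genes still called. Without Wt2, 19 genes were called, 18 of them among the 64, and Crabp2 was not (log2 fold change 1.10, edgeR adjusted p = 0.198), nor was it without Ho2 (0.83, edgeR adjusted p = 0.176). Crabp2 was also not called after thinning each cell to 2000 UMIs (log2 fold change 0.63, edgeR adjusted p = 0.605), without the library block (0.870) or against Dlx- cells without the other limits (0.202). Of the named lower genes, Gm14226, Phlda2, Ppp1r14c, Gm35533 and Nkain4 were not called without Wt1, with edgeR adjusted p between 0.0837 and 0.796. Without Wt1 Nkain4 was at -2.17, but Gm35533 was at -1.47, Gm14226 at -1.42, Ppp1r14c at -1.33 and Phlda2 at -0.89, and Tnni1, still called, was at -1.53. Further, Tnni1 (0.0930), Phlda2 (0.0570) and Ppp1r14c (0.0597) were not called without Wt2. Without the library block Nkain4 and Gngt2 were the only named lower genes called, and Tcf21 (-3.78, edgeR adjusted p = 0.0583), Rnd2 (-3.05, 0.107), Akr1b8 (-3.06, 0.107) and Tnni1 (-1.99, 0.429) were among the 8 that were not. After thinning, 44 genes were called, all lower, and Tcf21, Rnd2 and Tnni1 were among them. Of the 64 genes, 32 were tested there and 19 called. Gm35533 was not called after thinning (-1.47, edgeR adjusted p = 0.718).

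By list, none of 7 distal arch genes, 5 proximal genes, 5 Hox genes, 7 hedgehog genes, 7 endothelin genes and 27 cholesterol genes tested passed in either direction. The 1 intermediate arch gene tested, Barx1, and 1 of 9 retinoid genes, Crabp2, were called higher. Of 10 neural crest genes 1, Twist1, and of 17 matrix genes 2, Hapln1 and Fbn2, were called lower, where 0.659% of all genes were called lower and 0.0439% higher. Chosen after their values were seen, Wnt11 of 15 Wnt genes, Fgfr2 of 11 FGF genes, Tnni1 of 11 cardiomyocyte genes, Col9a1 of 5 cartilage genes and the stress-response genes Fos and Klf6 of 23 genes of heat shock and tissue dissociation also passed, all lower.

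The genotypes were compared in the Dlx+ sums, with 463 and 9 cells for Wt and 10 and 9 for Ho. No gene of 2468 tested passed at an edgeR adjusted p under 0.05, so that 0% were higher and 0% lower, 42 had an unadjusted p under 0.05, and DESeq2 called 1. The smallest unadjusted values among genes higher in Ho belonged to Plac1, Apoe, Ppp1r14a, Dkk1 and Actn4, with log2 fold changes between 1.17 and 6.05, and among genes lower in Ho to Ube2c, Sap30, Chordc1, H2afx and Eif3l, with changes between -1.88 and -1.02. The edgeR adjusted p was 1.00 for each of the 10. For each of the 10, both Ho libraries lay on the same side of both Wt libraries, so the sign could hardly turn when a library was left out. The signs were kept, but the sizes moved. H2afx lay between -2.55 and -0.98, Ube2c between -2.51 and -1.48, Apoe between 1.82 and 2.75 and Plac1 between 5.48 and 7.28. The gene called by DESeq2 was Plac1 (DESeq2 adjusted p = 4.15e-05). Plac1, Ube2c and Apoe were also called by edgeR with no filter on low counts. Without Wt1, where Wt rested on the 9 cells of Wt2 alone, Plac1 was at 7.28 and Ube2c at -1.94. Without Wt2, where Wt rested on Wt1 alone, they were at 5.95 and -1.83, and Apoe was at 2.75. Ppp1r14a, Dkk1, Sap30 and H2afx were at 2.15, 1.63, -1.74 and -1.90 there. In these fits the spread came from the Ho libraries alone. Plac1, a gene known from the placenta, had 15 UMIs in 463 cells of Wt1, none in Wt2, 28 in 6 cells of Ho1 and 11 in 3 cells of Ho2. Ube2c, a mitotic ubiquitin-conjugating enzyme, had 93 UMIs in Wt2, 84 of them in 1 cell.

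None of 8 cholesterol genes tested passed, with a median log2 fold change of -0.05 against -0.01 over all genes. Cyp51 UMIs in the Dlx+ cells numbered 640, 7, 12 and 16 in Wt1, Wt2, Ho1 and Ho2. Shares of cells with a UMI of 22 patterning genes, after thinning to 2000 UMIs, gave no p under 0.333 in the exact two-sided permutation test which is the smallest the design allows, and the adjusted p was 1 for each gene. The sums of Wt2, Ho1 and Ho2 held 9, 10 and 9 cells.

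Whether the genotype difference in Dlx+ cells differed from that in Dlx- cells was tested as an interaction. Of 10215 genes, 7 had a higher difference in Dlx+ cells (0.0685%) and 2 a lower one (0.0196%). The 5 with the smallest edgeR adjusted p were Plac1, Krt8, Sag, Ube2c and Tnni1. Sag, a photoreceptor arrestin, had 26 UMIs in 1 cell of Ho2, none in Ho1 and Wt2 and 93 in 25 cells of Wt1. Krt8, a keratin of simple epithelium, was at 4.83, 43.9, 103 and 190 CPM in Dlx+ cells (Wt1, Wt2, Ho1, Ho2) and at 35.2, 56.6, 53.6 and 81.5 CPM in Dlx- cells. Of the 9 genes called, 1, Plac1 (edgeR adjusted p = 0.00301), was called without Wt1, where 3 genes were called in all.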

How the data were processed

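Per the labels, the authors processed the reads with Cell Ranger 6.1.1 on mm10 and deposited UMI counts, not normalized, for 32285 genes and 7058 to 10320 barcodes per library, with 107377100 to 127018819 UMIs. Seurat 4.1.0 is named in the submitters' notes. Barcodes with 500 to 6000 genes, 2000 to 50000 UMIs and at most 20% mitochondrial UMIs were kept. Doublets were called with Scrublet in scanpy 1.11.5 and kept in the main analysis. Counts were summed per library and class, without the 10 genes of the rule, and tested with edgeR 4.0.16 in R 4.3.3 (quasi-likelihood, TMM, filterByExpr, Benjamini-Hochberg at 0.05). The tests were also run on sums simulated at the dispersion of the fit with known changes, without the filter on low counts. These sums were not drawn cell by cell, so levels carried by single cells were not part of that run. Library served as a block in comparisons of the 2 classes. Replicates were libraries, and nothing states that they came from separate litters, so p-values measure the spread between the sums of these libraries. The Dlx+ sums of Wt2, Ho1 and Ho2 held 9, 10 and 9 cells, so this spread also holds that between few cells. DESeq2 1.42.0, RLE, other filters, thinning, doublet removal and leaving out each library were alternatives. Members and gene lists (34) were chosen with earlier results of these data known. Genes were named when members of patterning, neural crest, Hox, endothelin, hedgehog or cholesterol lists, as the 15 and 10 largest changes among genes called with the same direction in all libraries and at least 20 CPM, or as the smallest p-values, 5 in each direction, for genotype, and 5 among those called for the interaction. Some genes were named outside these rules, among them Tbx20, Postn and genes of the matrix and FGF lists. Of the gene identifiers, 99.6% were in GENCODE M21, from which positions were taken. Exact intervals are 95% Clopper-Pearson or Poisson intervals, and a count of 0 was given a limit of 3 counts. Values of some members of the arch lists are not reported here.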

Additional observations from a re-analysis of the deposited data

Results flagged for a closer look

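For 9 genes the difference between Ho and Wt was not the same in Dlx+ and Dlx- cells by the interaction test in edgeR at an adjusted p under 0.05. The log2 difference of the 2 genotype effects was 4.75 for Plac1, 3.34 for Krt8, 5.06 for Sag, 2.04 for Tnni1, 1.76 for Crip1, 1.84 for Sat1 and 2.22 for Ier3, and -1.79 for Ube2c and -10.06 for Barx1. The Barx1 value is no measure of size, since both Ho sums held no Barx1 UMI. The Wt side of each difference combined 463 cells of Wt1 with 9 of Wt2, and the part of this mixture in the values was not tested apart from the fit without Wt1, which called 1 of the 9 genes. When a library was left out, the values lay between 4.10 and 10.27 for Plac1, 1.45 and 3.90 for Krt8, 0.91 and 2.60 for Tnni1, 0.99 and 2.16 for Crip1, 1.15 and 2.26 for Sat1, 1.24 and 2.79 for Ier3 and -2.42 and -1.36 for Ube2c. Without Ho1, Tnni1, Crip1, Sat1, Barx1 and Ier3 were not called. Without Ho2, Ube2c (-1.36, edgeR adjusted p = 0.254) and Sag (-5.88, edgeR adjusted p = 0.997) were not called. Without Wt1, Plac1 was the only one of the 9 called.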

How the results depend on the processing

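The genotype comparison called 0 genes, 1 with DESeq2, 23 with no filter on low counts and 1 to 160 when a library was left out, 160 without Wt2. With the replicate number as a replicate block it called 0 genes. Deviations of same-numbered libraries had r = -0.46 over 2468 genes, and numbers crossed as a block, added after seeing the data, also gave 0 calls. The Dlx+ against Dlx- comparison called 64 genes, 34 with DESeq2, 326 with no filter, 1 of 1791 genes with at least 10 UMIs in every sum, 4 with no library block, 727 against Dlx- cells without the other limits and 19 to 144 when a library was left out, 144 without Ho1 and 19 without Wt2. The interaction called 9 genes, 1 with DESeq2, 26 with RLE, 22 with no filter, 0 with at least 10 UMIs in every sum (52 at an unadjusted p under 0.05), 0 after thinning to 2000 UMIs (177 unadjusted) and 3 to 89 when a library was left out. Sag, at 5.06, lay between -5.88 and 9.12 when a library was left out, the sign turning without Ho2. The difference in shares, -2.71 points, lay between -5.44 and 0.0159 when a library was left out, the sign turning without Wt1, and kept its sign under the other alternatives. Thinning to 2000 UMIs before the rule left 67, 5, 0 and 0 members. The rule with at least 2 Dlx UMIs was not run in the tests, since Wt2 and Ho1 then held no cell. The causes were not tested.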
